A study of Homo sapiens with 12 samples.

Results

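The 9 genes PFKP, PFKL, PFKM, FBP1, ALDOA, PKM, PKLR, LDHA and LDHB encode isoenzymes of the glycolytic steps below hexokinase, together with the enzyme that runs the phosphofructokinase step backwards. They were chosen by name among the 43557 genes of the count table, and all 9 were among the 23070 genes that passed the filter on low counts. Poly(A)-selected RNA was sequenced from T24 and RT4 cells, both labelled as human bladder cancer lines. Each line gave 3 libraries labelled FTO knockdown (shFTO, short hairpin RNA against FTO, which encodes a demethylase of N6-methyladenosine in RNA) and 3 labelled as the negative control (shNC). The 4 groups carry no other agent or allele in the labels, which state neither time after knockdown nor whether the lines were pools or clones.

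Glycolysis turns glucose into pyruvate, and several of its steps can be run by more than 1 gene product. Phosphofructokinase commits sugar phosphate to the pathway as a tetramer of platelet-type (PFKP), liver-type (PFKL) and muscle-type (PFKM) subunits, and fructose bisphosphatase (FBP1) reverses that step during glucose synthesis in liver and kidney. Aldolase splits the sugar, pyruvate kinase makes pyruvate and ATP, and lactate dehydrogenase, a tetramer of A and B subunits, interconverts pyruvate and lactate. Cancer cells are known to favour PKM, mostly as its M2 splice form, and LDHA. PKLR is the pyruvate kinase gene of liver and red blood cells.

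Total counts per library ran from 31291047 to 102798895, with the deepest libraries being RT4 shNC replicates 2 and 3. Levels below are library-scaled counts (CPM, with TMM factors), as mean ± SD over 3 libraries unless a library is named, and comparisons between genes use CPM per kilobase (kb) of annotated exon. A gene is called changed where edgeR's quasi-likelihood test gave a Benjamini-Hochberg (BH) adjusted p below 0.05 over 23070 genes. FTO itself stood at 35.4, 36.3 and 33.9 CPM in T24 shNC and at 25.9, 26.3 and 24.2 CPM in T24 shFTO, replicates 1 to 3. In RT4 it stood at 45.0, 46.9 and 46.6 CPM in shNC and at 70.2, 71.3 and 65.2 CPM in shFTO. FTO was therefore lower in the T24 libraries labelled shFTO (log2 change -0.46, edgeR BH-adjusted p = 1.93e-07) and higher in the RT4 libraries labelled shFTO (log2 change 0.58, edgeR BH-adjusted p = 4.19e-09), which goes against the RT4 label. Below, "T24 shFTO" and "RT4 shFTO" mean the libraries labelled so.

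Marker genes also differed between the groups. The summed level of 15 urothelial markers ranged from 1359 to 1432 CPM in T24 shNC and from 421 to 429 in T24 shFTO. In RT4 it ranged from 20.0 to 23.3 CPM in shNC and from 183 to 190.0 in shFTO. Of the 15, 3 had a mean of at least 10 CPM in T24 shNC, 5 in T24 shFTO, 0 in RT4 shNC and 3 in RT4 shFTO. KRT7 alone averaged 1208 CPM in T24 shNC and 143 CPM in RT4 shFTO. It was below 1 CPM in T24 shFTO, where KRT19 was the highest marker at 155 CPM. In RT4 shNC the highest was GATA3 at 9.06 CPM. The uroplakin genes UPK1A and UPK3A were below 1 CPM in all 4 groups. UPK1B reached 1 CPM in T24 shFTO only, UPK2 in T24 shNC only, and UPK3B in T24 shNC and RT4 shFTO. The summed level of 15 hepatocyte markers ranged from 25301 to 26374 CPM in T24 shFTO, where 14 of 15 had a mean of at least 10 CPM, none was at 0 counts and ALB averaged 10704 CPM, and its highest library elsewhere was 39.5 CPM. Of the 10 fibroblast markers, 7 had a mean of at least 10 CPM in RT4 shFTO, with a summed range from 7469 to 7803 CPM, against 1 such marker (VIM) and 3164 to 3451 CPM in RT4 shNC. COL1A2 alone averaged 6499 CPM of a mean sum of 7635 CPM in RT4 shFTO. VIM averaged 3313 CPM in RT4 shNC, more than the rest of that sum, so VIM itself was lower in RT4 shFTO. The T24 groups had 2 such markers each and summed to 418 to 426 (shNC) and 514 to 548 CPM (shFTO). The part of these differences in the results below was not tested, and in bulk RNA fewer cells of a type cannot be told apart from less RNA per cell. Nothing in the labels ties replicates to separate cultures, and the p-values therefore speak of the spread among these libraries alone.

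The promoter stretches of both lactate dehydrogenase and both pyruvate kinase genes are shown because these are the pairs in which 1 gene could be at or near 0 while its partner stayed abundant. Each is the 250 bases before an annotated start, from RefSeq on GRCh38.p14, read 5′ to 3′ on the gene's strand. Capitals mark the core of the hypoxia-inducible factor site (ACGTG, found alone or inside the E-box CACGTG) and the GC box (GGGCGG), each on either strand.
LDHA, first listed start, chr11:18394313-18394562, plus strand: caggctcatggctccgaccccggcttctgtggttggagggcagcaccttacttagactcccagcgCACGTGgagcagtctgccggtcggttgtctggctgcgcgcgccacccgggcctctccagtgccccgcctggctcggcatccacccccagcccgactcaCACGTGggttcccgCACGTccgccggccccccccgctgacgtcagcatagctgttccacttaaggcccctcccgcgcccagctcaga
LDHB, chr12:21657843-21658092, minus strand: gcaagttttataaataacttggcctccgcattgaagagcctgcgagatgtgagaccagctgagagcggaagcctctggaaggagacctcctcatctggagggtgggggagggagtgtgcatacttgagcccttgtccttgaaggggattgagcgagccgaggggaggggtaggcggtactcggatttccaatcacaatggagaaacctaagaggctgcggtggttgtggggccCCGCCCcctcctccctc
PKM, chr15:72231191-72231440, minus strand: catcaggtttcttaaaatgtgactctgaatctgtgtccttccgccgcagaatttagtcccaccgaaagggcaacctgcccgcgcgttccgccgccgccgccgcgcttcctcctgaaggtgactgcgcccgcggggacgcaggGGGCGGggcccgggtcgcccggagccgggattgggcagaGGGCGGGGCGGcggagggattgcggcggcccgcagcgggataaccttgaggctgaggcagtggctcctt
PKLR, first listed start, chr1:155301439-155301688, minus strand: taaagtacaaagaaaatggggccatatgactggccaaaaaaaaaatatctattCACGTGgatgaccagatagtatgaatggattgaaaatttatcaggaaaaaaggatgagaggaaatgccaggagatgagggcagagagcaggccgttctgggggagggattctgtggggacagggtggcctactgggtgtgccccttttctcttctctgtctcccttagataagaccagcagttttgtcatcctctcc
PKLR, other listed start, chr1:155300953-155301202, minus strand: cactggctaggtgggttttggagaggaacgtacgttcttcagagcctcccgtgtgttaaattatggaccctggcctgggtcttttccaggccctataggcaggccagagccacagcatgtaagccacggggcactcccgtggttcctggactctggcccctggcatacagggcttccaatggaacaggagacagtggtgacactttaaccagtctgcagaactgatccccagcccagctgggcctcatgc
The LDHA stretch shown holds 3 separate ACGTG cores, 2 of them as CACGTG, and no GC box. The other listed LDHA start, not shown, has 4 GC boxes and no ACGTG in its 300-base window. LDHB has 1 GC box and no ACGTG, while PKM has 3 GC boxes and no ACGTG. The first PKLR start has 1 CACGTG and the other has neither motif. Over the 300-base windows that run on to 50 bases after the start, GC content was 70.0% and 65.0% for the LDHA starts. It was 59.0% for LDHB, 68.0% for PKM, and 48.3% and 57.7% for PKLR. The observed over expected CpG count was 0.83 and 0.98 for the LDHA starts, 0.55 for LDHB and 0.98 for PKM. It was 0.23 and 0.20 for PKLR, and the median over the 35116 windows of all genes was 0.58. ACGTG occurs in 21.4% of those windows, CACGTG in 7.3% and GGGCGG in 45.0%, so such matches describe the letters and not binding. The other 5 members also have windows in the table, which makes 9 of 9 matched by symbol, and of the 9 first listed windows 6 hold a GC box and 3 an ACGTG core.

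The isoenzyme genes changed in both lines, mostly downwards in T24 and mostly upwards in RT4. In T24 shFTO against shNC, 7 of the 9 were lower, 1 was higher (PKLR, which passed the filter on low counts only through T24 shFTO, so that its calls in comparisons with that group were fixed by the filter) and 1 was not called (FBP1). With 78.0% of all tested genes called in that comparison, 37.2% higher and 40.8% lower, the 8 members called are close to the background in number. In RT4, 6 were higher, 2 were lower (PFKM and LDHB) and PKLR was not called, again 8 of 9 against 78.6% of all tested genes, 38.6% higher and 40.0% lower. The members' median log2 change was -1.64 in T24 and 1.67 in RT4, beside -0.055 and -0.0038 over all tested genes. The groups' values did not overlap for 8 of 9 members in each line, beside 79.6% and 79.9% of all tested genes. All 9 changes differed between the lines, 8 being lower and 1 higher in T24 than in RT4, in a test that called 75.0% of all genes, 36.3% higher and 38.7% lower. The labels give each library a batch number from 1 to 3, and the log2 ratio of shFTO to shNC was also taken within each batch. For LDHB it ran from -12.49 to -10.61 in T24 and from -2.55 to -2.46 in RT4, for PFKP from -8.42 to -7.63 and from 1.60 to 1.72, and for PKM from -2.20 to -2.05 and from 2.18 to 2.25. Besides direction, the members differed in the size of their changes. Among called members it ran from 1.41-fold (ALDOA in T24) to 2422-fold (LDHB in T24, pooled over libraries).

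**Figure D1:**
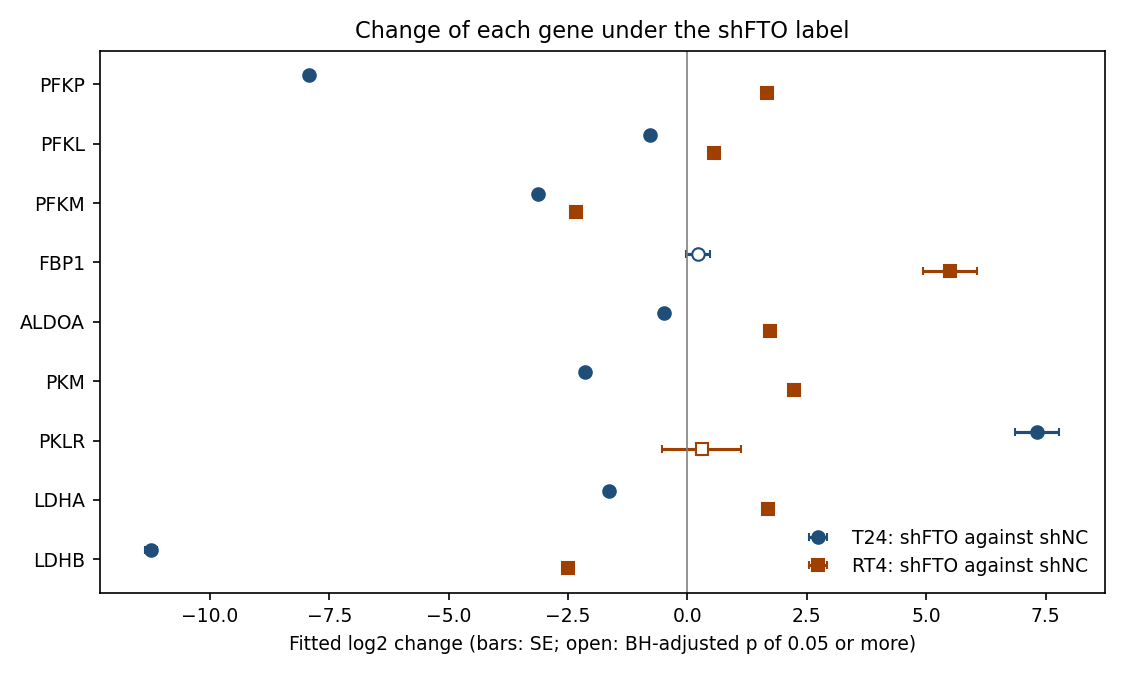
Fitted log2 change (horizontal axis) of each isoenzyme gene in shFTO against shNC libraries, in T24 (circles) and RT4 (squares). Bars are SE, taken as the absolute log2 change over the square root of edgeR's F statistic, with 3 libraries a group. At few counts these bars can fall short of counting error. Filled points have a BH-adjusted p below 0.05, and PFKM and LDHB are the genes that lie left of 0 in both lines.

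The platelet-type transcript of phosphofructokinase was nearly lost in T24 shFTO and rose from an already high level in RT4 shFTO. PFKP (chromosome 10, 3067548 to 3136805, GRCh38.p14) stood at 147, 144 and 149 CPM in T24 shNC and at 0.743, 0.580 and 0.435 CPM in T24 shFTO, where the 3 libraries held 74 counts together. In RT4 it stood at 143, 145 and 144 CPM in shNC and at 461, 437 and 475 CPM in shFTO. The control groups of both lines thus lay at nearly the same level, with overlapping values, while the shFTO groups lay far below and above them. Pooled over libraries, PFKP was 244-fold lower in T24 shFTO (95% counting interval 195 to 312; edgeR BH-adjusted p = 1.37e-20). In RT4 shFTO it was 3.19-fold higher (log2 change 1.67, SE 0.044, edgeR BH-adjusted p = 1.94e-15). Between the controls the edgeR BH-adjusted p was 0.517, whereas DESeq2 gave 0.0349 and edgeR with upper-quartile scaling gave 0.032, for a difference of at most 0.10 on the log2 scale.

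PFKM, the muscle-type subunit (chromosome 12, 48105353 to 48146404), fell in both lines. It stood at 163, 161 and 168 CPM in T24 shNC and at 19.2, 18.9 and 17.9 CPM in T24 shFTO. In RT4 the values were 210.1, 214 and 219 CPM in shNC and 40.7, 44.3 and 41.8 CPM in shFTO. No library of an shFTO group came near a control library, and the order was RT4 shNC, T24 shNC, RT4 shFTO, T24 shFTO with each neighbouring pair called different. The fold was 8.79 in T24 (log2 change -3.13, SE 0.043) and 5.07 in RT4 (log2 change -2.34, SE 0.040), and the log2 changes differed by -0.79 (edgeR BH-adjusted p = 1.47e-09).

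PFKL, the liver-type subunit (chromosome 21, 44300053 to 44327373), moved least of the phosphofructokinase genes. It averaged 147 ± 4.25 CPM in T24 shNC, 85.2 ± 2.82 in T24 shFTO, 137 ± 3.22 in RT4 shNC and 202 ± 4.91 in RT4 shFTO. It was thus 1.73-fold lower in T24 shFTO and 1.48-fold higher in RT4 shFTO, and both changes were called (edgeR BH-adjusted p = 3.37e-12 and 2.45e-10). The small difference between the controls (log2 0.11) was also called, but not without T24 shNC replicate 3 (edgeR BH-adjusted p = 0.128) or without RT4 shNC replicate 1 (0.0886).

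The mix of subunit transcripts therefore had a different leading gene in each shFTO group. Of the summed phosphofructokinase level per kb of exon, PFKP made up 43.8 ± 0.431% in T24 shNC, PFKM 32.4 ± 0.0802% and PFKL 23.8 ± 0.436%. In T24 shFTO, PFKL made up 78.1 ± 0.473%, PFKM 20.9 ± 0.265% and PFKP 0.988 ± 0.237%. RT4 shNC resembled T24 shNC in that no subunit reached a majority, with 40.0 ± 0.421% PFKP, 39.4 ± 0.300% PFKM and 20.6 ± 0.169% PFKL. In RT4 shFTO, PFKP made up 76.9 ± 0.718%, PFKL 18.4 ± 0.381% and PFKM 4.70 ± 0.347%. None of the shares of a subunit overlapped between the groups of a line, and each exact two-sided permutation p was 0.1, the smallest that 3 against 3 libraries can give. The PFKL share fell by 2.21 percentage points in RT4 on this scale, a direction that turned to 1.15 points higher in shares of counts. The summed level per kb was 69.3 ± 1.35 CPM in T24 shNC and 12.2 ± 0.428 in T24 shFTO, 5.67-fold lower. It was 74.3 ± 1.15 CPM per kb in RT4 shNC and 123 ± 4.23 in RT4 shFTO, 1.66-fold higher.

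**Figure D2:**
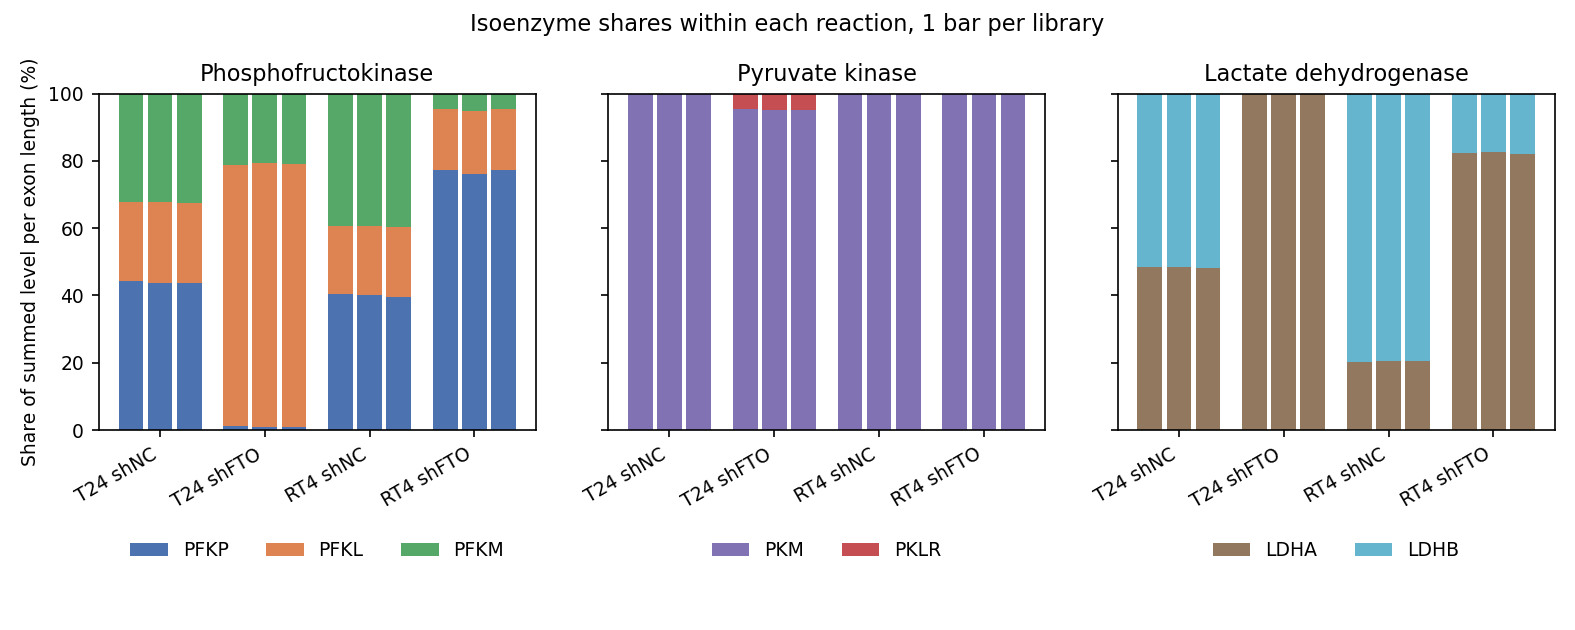
Share of each isoenzyme gene in the summed level per exon length of its reaction (vertical axis, percent), with 1 bar per library in replicate order for the 4 groups. PFKL fills most of the phosphofructokinase bars only in T24 shFTO, PKLR is visible only there, and the LDHB part is nearly gone in T24 shFTO and reduced in RT4 shFTO.

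The regulators of the step were 5 genes: PFKFB1 to PFKFB4, bifunctional enzymes that make and break down an allosteric activator of phosphofructokinase, and TIGAR, a phosphatase that removes it. In T24 shFTO, 2 of the 5 were higher and 2 lower (37.2% and 40.8% of all tested genes), and in RT4 shFTO 2 were higher and 3 lower (38.6% and 40.0%). PFKFB3 rose from 9.57 ± 0.609 to 61.3 ± 1.20 CPM in T24 and from 31.5 ± 0.704 to 76.7 ± 2.46 CPM in RT4. PFKFB4 moved in opposite directions, from 20.9 ± 0.662 to 3.07 ± 0.358 CPM in T24 and from 12.1 ± 0.379 to 21.6 ± 1.27 CPM in RT4, and each of these 4 changes was called.

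FBP1 (chromosome 9, 94603133 to 94640263) was low in every group, at most 2.50 CPM in any library, and was called changed only in RT4. It stood at 1.99, 1.55 and 1.78 CPM in T24 shNC and at 2.50, 1.89 and 1.77 CPM in T24 shFTO, and these groups overlapped (log2 change 0.22, edgeR BH-adjusted p = 0.44). In RT4 shNC the 3 libraries held 0, 2 and 0 counts, and in RT4 shFTO 24, 13 and 16 counts, or 0.476 ± 0.147 CPM. The pooled ratio in RT4 was 58.2 (95% counting interval 15.3 to 493; edgeR BH-adjusted p = 1.4e-07), at levels below 1 CPM. Both control counts came from RT4 shNC replicate 2, and the fitted log2 change of 5.49 became 7.40 without that library and 4.93 without RT4 shNC replicate 3. Relative to the summed phosphofructokinase level per kb, FBP1 amounted to 1.47 ± 0.183% in T24 shNC and 9.65 ± 1.69% in T24 shFTO, a log2 ratio higher by 2.71 (exact two-sided permutation p = 0.1, the smallest possible). The percentages depend on the length used, being 0.387 and 1.96% by counts and 0.933 and 4.63% by coding length, with log2 ratios higher by 2.34 and 2.30. The numerator of this ratio was not called changed, while all phosphofructokinase genes in its denominator fell. In RT4 it amounted to 0.222 ± 0.0677% per kb of exon in shFTO and 0.00469% in shNC, where the log2 ratio is undefined in 2 libraries.

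Aldolase stayed almost wholly ALDOA, the widely expressed form (chromosome 16, 30064279 to 30070420), and its level moved in opposite directions in the lines. ALDOA averaged 1684 ± 36.6 CPM in T24 shNC, 1193 ± 20.1 in T24 shFTO, 546 ± 42.9 in RT4 shNC and 1814 ± 97.8 in RT4 shFTO. It was 1.41-fold lower in T24 shFTO (log2 change -0.50, SE 0.049, edgeR BH-adjusted p = 1.13e-07) and 3.32-fold higher in RT4 shFTO (log2 change 1.73, SE 0.050, edgeR BH-adjusted p = 1.72e-14). T24 shNC and RT4 shFTO overlapped and did not pass the test (edgeR BH-adjusted p = 0.0587). Per kb of exon, ALDOA made up 96.9 ± 0.104%, 97.7 ± 0.150%, 99.9 ± 0.0250% and 97.4 ± 0.0669% of the aldolase genes in T24 shNC, T24 shFTO, RT4 shNC and RT4 shFTO. ALDOC, the brain-type form, fell from 40.3 ± 2.20 to 20.7 ± 1.16 CPM in T24 and rose from 0.348 ± 0.0584 to 36.4 ± 2.49 CPM in RT4.

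Pyruvate kinase transcripts fell in T24 shFTO and rose in RT4 shFTO by similar factors, and the liver and red cell gene PKLR appeared in T24 shFTO. PKM (chromosome 15, 72199029 to 72231591) stood at 3035, 3037 and 3166 CPM in T24 shNC and at 735, 680.5 and 687 CPM in T24 shFTO. In RT4 it stood at 745, 761 and 780.0 CPM in shNC and at 3552, 3454 and 3678 CPM in shFTO. The high pair of groups was thus T24 shNC with RT4 shFTO, and the low pair was T24 shFTO with RT4 shNC. PKM was 4.40-fold lower in T24 shFTO (log2 change -2.14, SE 0.036, edgeR BH-adjusted p = 7.41e-18) and 4.67-fold higher in RT4 shFTO (log2 change 2.22, SE 0.037, edgeR BH-adjusted p = 4.75e-18). Within the pairs the groups were close but called different, by 1.16-fold in the high pair and 1.09-fold in the low pair (edgeR BH-adjusted p = 4.22e-05 and 0.00467). The call in the high pair was lost with upper-quartile scaling (log2 difference -0.028, edgeR BH-adjusted p = 0.439), which moves the median of all genes by 0.182 in that comparison. Counts per gene do not separate the M1 and M2 splice forms of PKM.

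PKLR (chromosome 1, 155289293 to 155308654) had 0, 4 and 5 counts in T24 shNC, 5, 8 and 1 in RT4 shNC and 4, 0 and 4 in RT4 shFTO. In T24 shFTO it had 648, 428 and 501 counts, or 12.7, 13.1 and 12.8 CPM. These 3 libraries stood alone, and PKLR passed the filter on low counts only through them. The pooled ratio in T24 was 165 (95% counting interval 86.4 to 360), given as a description because the filter itself fixed that outcome, and in RT4 it was 1.26 (0.456 to 3.21; edgeR BH-adjusted p = 0.763). PKLR made up 4.74 ± 0.246% of pyruvate kinase per kb of exon in T24 shFTO and at most 0.0416% in any library of the other groups, so PKM remained the main form in all 4 groups. Exon and coding length are 8571 and 1593 bases for PKM and 3168 and 1722 for PKLR, and with coding length the share in T24 shFTO was 1.67%. The summed hepatocyte marker level was high in the same 3 libraries, and HNF4A, a liver transcription factor, averaged 262 ± 6.85 CPM there against 1.85 ± 0.552 CPM in T24 shNC. The part of either in the PKLR level was not tested.

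Of 5 factors of PKM splicing, 4 were higher and none was lower in T24 shFTO (37.2% and 40.8% of all tested genes), while in RT4 shFTO 4 were higher and 1 lower (38.6% and 40.0%). SRSF3, at 248 ± 3.24 CPM in RT4 shFTO and 230.3 ± 5.12 in RT4 shNC, is 1 of those 4, and its direction turned with upper-quartile scaling. PTBP1, a repressor of the exon that defines the M1 form, rose from 406 ± 5.29 to 873 ± 40.2 CPM in T24 and was at 390 ± 16.3 and 441 ± 13.3 CPM in RT4 shNC and shFTO. HNRNPA1, which acts on the same exon, was at 944 ± 22.6 and 943 ± 93.8 CPM in T24 shNC and shFTO and fell from 1644 ± 5.72 to 652 ± 23.5 CPM in RT4. RBM4, which favours the M1 form in other systems, rose from 122 ± 3.30 to 202 ± 9.79 CPM in T24 and from 79.99 ± 3.75 to 143 ± 5.18 CPM in RT4.

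Lactate dehydrogenase showed the largest change of the set, the near loss of LDHB in T24 shFTO. LDHB (chromosome 12, 21635342 to 21657842), the subunit typical of heart and other oxidative tissues, stood at 858, 878 and 914 CPM in T24 shNC. In T24 shFTO the 3 libraries held 28, 5 and 12 counts, or 0.548, 0.153 and 0.307 CPM. In RT4 it stood at 1025, 1059 and 1079 CPM in shNC and at 183, 181 and 196 CPM in shFTO. LDHB was therefore lower in the shFTO libraries of both lines, but RT4 shFTO kept a level far above that of T24 shFTO. Pooled over libraries, the fold in T24 was 2422 (95% counting interval 1810 to 3320; edgeR BH-adjusted p = 3.7e-18), and the fold between the shFTO groups was 510.5 (381 to 700.1). The fitted log2 change in T24 was -11.23, and -11.85 without T24 shFTO replicate 1, which held most of the counts left. In RT4 the fold was 5.65 (log2 change -2.50, SE 0.065, edgeR BH-adjusted p = 8.18e-14). The pseudogenes LDHBP1 and LDHBP2 together held 8 counts in T24 shFTO beside 45 for LDHB, so reads shared between near-identical copies could matter at that level, and 3 counts beside 102327 in T24 shNC.

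LDHA (chromosome 11, 18394563 to 18408425), the subunit typical of skeletal muscle and of glycolytic tumours, followed the same pattern over groups as PKM. It stood at 1675, 1719 and 1768 CPM in T24 shNC and at 556, 539.7 and 565 CPM in T24 shFTO. In RT4 it stood at 539.9, 568 and 584 CPM in shNC and at 1769, 1786 and 1865 CPM in shFTO. T24 shFTO and RT4 shNC overlapped, and T24 shNC lay just below RT4 shFTO. The change was 3.11-fold down in T24 (log2 change -1.64, SE 0.036, edgeR BH-adjusted p = 1.58e-16) and 3.20-fold up in RT4 (log2 change 1.68, SE 0.036, edgeR BH-adjusted p = 1.24e-16). Neither pair of similar groups passed the test, with edgeR BH-adjusted p = 0.496 for the low pair and 0.0762 for the high pair. With upper-quartile scaling LDHA in the high pair turned to higher in T24 shNC and was called (log2 difference 0.11, edgeR BH-adjusted p = 0.00362), and limma-voom called it lower (log2 difference -0.069, BH-adjusted p = 0.0281).

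LDHA thus took a larger share of lactate dehydrogenase transcripts in the shFTO libraries of both lines, whichever way its own level moved. The LDHB share per kb of exon was 51.7 ± 0.157% in T24 shNC and 0.125 ± 0.0737% in T24 shFTO. It was 79.6 ± 0.224% in RT4 shNC and 17.7 ± 0.258% in RT4 shFTO. No shares overlapped between groups (exact two-sided permutation p = 0.1 in each line, the smallest possible). With coding length, the shares were 35.7%, 0.0652%, 66.9% and 10.04% in the same order, so which gene led in T24 shNC depended on the length used, while LDHB led in RT4 shNC and LDHA in both shFTO groups by either length. The exon length of LDHA, over all annotated transcripts, is 6210 bases and its coding length 1083, against 2983 and 1002 for LDHB.

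**Figure D3:**
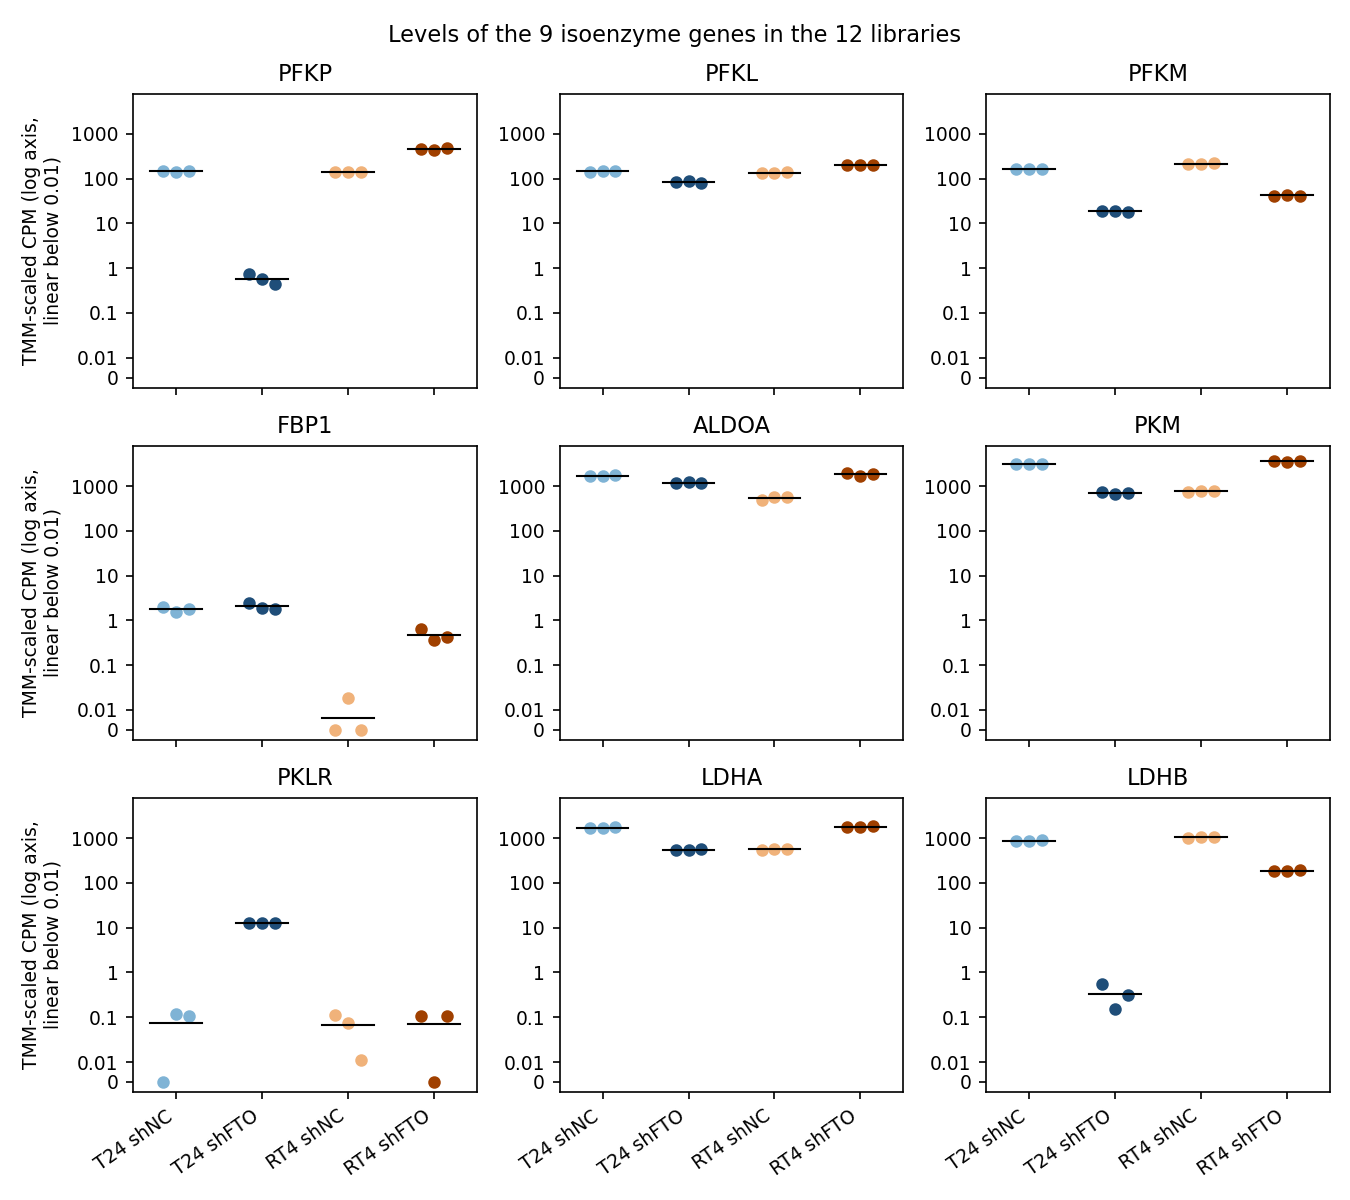
Level of each gene in each of the 12 libraries (points; vertical axis TMM-scaled CPM on a log axis that is linear below 0.01), with bars at the mean of 3 libraries. PFKP and LDHB drop below 1 CPM in T24 shFTO, PKLR lies near 13 CPM in that group alone, and PKM and LDHA form a high pair (T24 shNC, RT4 shFTO) and a low pair (T24 shFTO, RT4 shNC).

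Summed over the genes of a reaction, all 4 steps had less transcript in T24 shFTO, and phosphofructokinase, aldolase and pyruvate kinase had more in RT4 shFTO, whether sums were taken per kb of exon, per kb of coding length or in counts. Per kb of exon, pyruvate kinase was 359 ± 8.73 CPM in T24 shNC and 85.8 ± 3.40 in T24 shFTO, 4.19-fold lower, and aldolase was 444 ± 10.03 and 312 ± 4.88, 1.42-fold lower. Lactate dehydrogenase fell most, from 573 ± 16.9 to 89.3 ± 2.12 CPM per kb, 6.42-fold. In RT4 shFTO, pyruvate kinase rose 4.67-fold, from 88.9 ± 2.00 to 416 ± 13.1 CPM per kb, and aldolase 3.41-fold, from 139.5 ± 10.9 to 476 ± 25.8. For lactate dehydrogenase, with LDHA higher and LDHB lower there, the direction in RT4 depended on the length used. Per kb of exon it was lower, at 354 ± 10.8 CPM in RT4 shFTO against 444 ± 12.7 in RT4 shNC, but it was higher in counts, at 1993 ± 58.9 against 1618 ± 49.5 CPM, and per kb of coding length, at 1855 ± 54.99 against 1573 ± 47.7 CPM. By each of these measures the sums had an exact two-sided permutation p of 0.1 between the groups of a line, the smallest possible, with no overlap of libraries.

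**Figure D4:**
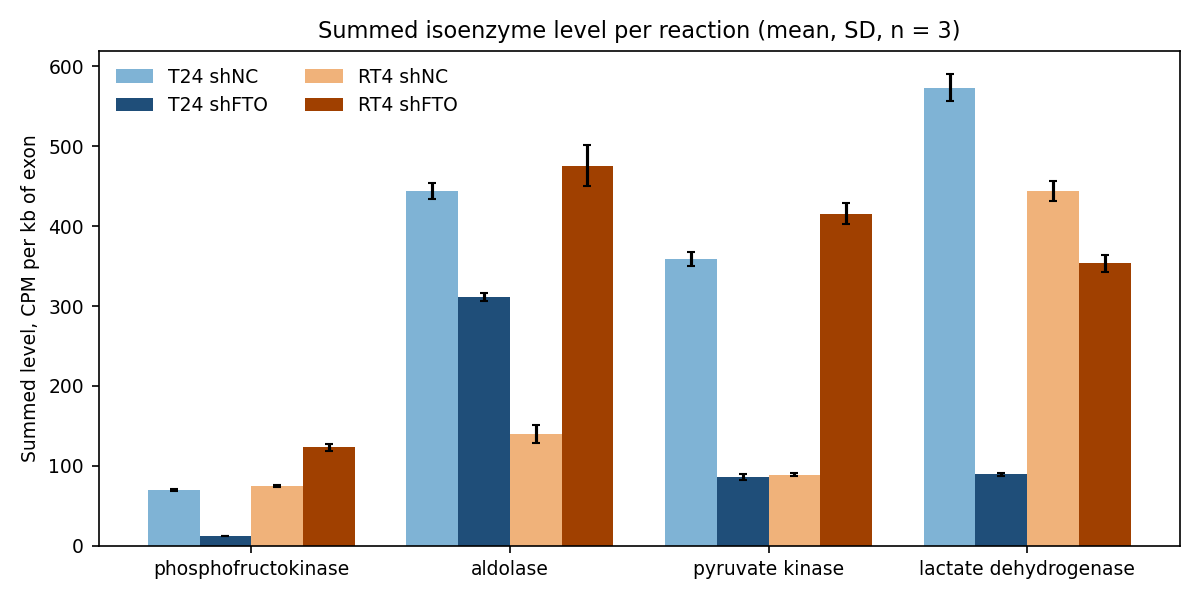
Summed level of the isoenzyme genes of each reaction in the 4 groups (bars, mean of 3 libraries; error bars, SD; vertical axis CPM per kb of exon). T24 shFTO is below T24 shNC at each step, and RT4 shFTO is above RT4 shNC at each step except lactate dehydrogenase, whose direction in RT4 turns to higher in counts or with coding length.

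The control groups of the lines already differed in part of the set. T24 shNC against RT4 shNC, 5 members were higher, 2 lower (PFKM and LDHB) and 2 not called (PFKP and PKLR), with 80.1% of all tested genes called, 40.3% higher and 39.7% lower. Values of 7 members did not overlap, beside 81.7% of all genes. ALDOA, PKM and LDHA were 3.09-, 4.04- and 3.05-fold higher in T24 shNC, and FBP1 was higher by a pooled ratio of 216 (95% counting interval 59.1 to 1799) against 2 counts in RT4 shNC. LDHB was 1.19-fold lower in T24 shNC (edgeR BH-adjusted p = 0.00162). The shFTO groups differed in all 9 members, of which T24 shFTO had 2 higher (FBP1 and PKLR) and 7 lower than RT4 shFTO, with 77.5% of all genes called, 37.8% higher and 39.7% lower. Across lines and labels, T24 shNC had 3 members higher and 3 lower than RT4 shFTO and 3 not called (ALDOA, PKLR and LDHA), beside 76.0% of all genes, 39.4% higher and 36.6% lower. T24 shFTO had 3 higher and 5 lower than RT4 shNC and 1 not called (LDHA), beside 80.1% of all genes, 37.4% higher and 42.8% lower.

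Of 21 other enzymes of glycolysis and glucose synthesis, 20 were in the table and 18 were tested. In T24 shFTO, 4 of them were higher and 13 lower, and in RT4 shFTO 9 were higher and 7 lower, beside 37.2% higher and 40.8% lower of all tested genes in T24 and 38.6% and 40.0% in RT4. The list's median log2 change was -0.81 and 0.28, beside -0.055 and -0.0038 over all tested genes, whose median change regardless of sign was 1.06 and 1.04. Within the glycolytic chain, PGK1 (phosphoglycerate kinase) fell from 548 ± 13.4 to 216 ± 12.04 CPM in T24 and rose from 366 ± 6.70 to 1041 ± 8.44 CPM in RT4. ENO1, the widely expressed enolase, fell from 2061 ± 92.1 to 1320 ± 43.8 CPM in T24 and rose from 1443 ± 47.7 to 5121 ± 203 CPM in RT4. ENO2, the neuronal enolase, fell from 51.1 ± 2.07 to 11.8 ± 1.23 CPM in T24 and was at 66.8 ± 2.47 and 58.6 ± 0.372 CPM in RT4 shNC and shFTO. On the side of glucose synthesis, PC (pyruvate carboxylase) rose in both lines, from 81.3 ± 6.32 to 209 ± 9.03 CPM in T24 and from 22.1 ± 1.01 to 497 ± 3.62 CPM in RT4. PCK2, the mitochondrial phosphoenolpyruvate carboxykinase, rose from 24.6 ± 0.259 to 110.4 ± 4.19 CPM in T24 and fell from 46.1 ± 1.71 to 27.7 ± 1.55 CPM in RT4. G6PC3, the widely expressed glucose phosphatase, fell from 137 ± 3.72 to 39.5 ± 1.59 CPM in T24 and rose from 27.6 ± 0.708 to 104 ± 0.887 CPM in RT4.

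Of 17 genes for the handling of pyruvate and lactate, 5 were higher and 11 lower in T24 shFTO, and 10 were higher and 4 lower in RT4 shFTO, beside 37.2% higher and 40.8% lower of all tested genes in T24 and 38.6% and 40.0% in RT4. SLC16A3, a lactate exporter, fell from 322 ± 20.2 to 86.4 ± 3.80 CPM in T24 and rose from 45.6 ± 2.704 to 433 ± 9.38 CPM in RT4. PDHA1, the catalytic subunit of pyruvate dehydrogenase, fell from 330 ± 2.36 to 70.9 ± 4.72 CPM in T24 and was at 93.3 ± 6.72 and 105 ± 1.43 CPM in RT4 shNC and shFTO. PDK3 and PDK4, kinases that switch that enzyme off, were lower in T24 shFTO and higher in RT4 shFTO. PDK3 fell from 51.5 ± 1.08 to 4.71 ± 0.286 CPM in T24 and rose from 20.3 ± 2.00 to 72.3 ± 1.59 CPM in RT4. PDK4 fell from 3.33 ± 0.253 to 0.410 ± 0.0886 CPM in T24 and rose from 0.491 ± 0.132 to 51.4 ± 0.864 CPM in RT4. PDP1, a phosphatase that switches it on, fell from 7.96 ± 0.552 to 3.20 ± 0.259 CPM in T24 and from 264 ± 5.07 to 53.4 ± 2.04 CPM in RT4. MPC1, a subunit of the mitochondrial pyruvate carrier, rose from 8.80 ± 0.518 to 36.6 ± 2.90 CPM in T24 and from 13.9 ± 0.871 to 46.2 ± 1.34 CPM in RT4.

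Of 11 transcription factors with known glycolytic targets, 6 were higher and 4 lower in T24 shFTO, and 5 were higher and 5 lower in RT4 shFTO, beside 37.2% higher and 40.8% lower of all tested genes in T24 and 38.6% and 40.0% in RT4. HIF1A and EPAS1 encode oxygen-regulated factors that bind ACGTG cores. HIF1A fell from 357 ± 7.95 to 242 ± 3.99 CPM in T24 and rose from 159 ± 6.21 to 935 ± 33.5 CPM in RT4. EPAS1 rose in both lines, from 87.8 ± 3.82 to 303 ± 9.07 CPM in T24 and from 66.4 ± 2.69 to 552 ± 9.55 CPM in RT4. These factors are controlled mainly at the protein level, which was not measured. MYC fell from 262 ± 3.01 to 207 ± 5.18 CPM in T24 and from 108 ± 3.70 to 33.2 ± 3.42 CPM in RT4. FOXO1, a factor of glucose synthesis in liver, rose from 6.94 ± 0.780 to 53.2 ± 3.71 CPM in T24 and fell from 8.97 ± 0.329 to 2.36 ± 0.348 CPM in RT4.

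The genes whose log2(CPM + 1) followed a member most closely over the 12 libraries were looked up for the 6 members with more than a 4-fold range between group means, among 10662 genes. For PFKP they were AHNAK (r = 0.999) and BCAR3 (r = 0.999), for PFKM IFT43 (r = 0.998) and RABGAP1 (r = 0.997), and for FBP1 GGCT (r = 0.991) and PLEKHA4 (r = 0.987). For PKM they were FMNL1 (r = 0.999) and GPC1 (r = 0.999), for PKLR ORM2 (r = 0.999) and FGG (r = 0.999), and for LDHB MME (r = 0.9995) and APOBEC3C (r = 0.999). The points share 4 groups, so such an r mainly describes the order of 4 group means. FGG, the fibrinogen gamma chain, and ORM2, an acute phase protein, are products of liver: FGG averaged 229 CPM in T24 shFTO and at most 0.0571 CPM in the other groups. MME averaged 53.5, 0, 61.7 and 18.9 CPM in T24 shNC, T24 shFTO, RT4 shNC and RT4 shFTO.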

How the data were processed

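Counts per gene for 12 poly(A)-selected RNA libraries were used as deposited by the authors. The submitters' processing notes list fastp 0.20.0, STAR 2.7.9a and featureCounts 2.0, and the builds mm39, GRCh38 and hg38 with no role. For annotation release, strand setting and multiply mapped reads, the sources used here give nothing.

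Groups follow the labels. Members, gene lists, comparisons and named-gene rule were chosen with earlier results of these data known. The rule named all 9 members, FTO, up to 6 genes per list with the largest called change at a mean of at least 10 CPM in a compared group (the first few are given; some items are not reported here), and, for members with a range over 4-fold, the 2 genes of highest Pearson r.

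The count table was analysed with edgeR 4.0.16 (R 4.3.3): TMM, filterByExpr by group, a robust quasi-likelihood fit of 4 groups with 8 residual degrees of freedom, BH over 23070 genes, called below 0.05. The common biological coefficient of variation was 0.0768. Pooled ratios carry exact 95% intervals, and these cover counting error only. The SE of a log2 change is its absolute value over the square root of edgeR's F statistic. At few counts it can fall short of counting error. Levels per length used the exon union of GENCODE 29; shares were compared by exact permutation (scipy 1.17.1). RefSeq GRCh38.p14 gave positions and promoters. The method was tested on simulated data with few changed genes, balanced in direction, on a shared mean profile. That test does not cover contrasts in which most genes are called, such as those here.

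The labels give a batch number, 1 to 3, equal to the replicate number, and libraries were paired by it. As a check, correlations between residuals of same-numbered libraries were 0.101, -0.036 and 0.019 (T24, numbers 1 to 3) and -0.098, -0.022 and -0.020 (RT4). An shFTO library correlated best with the control library of its own number only for T24 number 1, so these values do not bear out the pairing. Alternatives were RLE and upper-quartile scaling, other filters, DESeq2 1.42.0, limma-voom (limma 3.58.1), each line alone, the batch block, leaving out each library, and shares by counts or coding length.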

Additional observations from a re-analysis of the deposited data

Results flagged for a closer look

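Several results differed between the lines under the same contrast of shFTO against shNC. For the log2 changes the difference itself (T24 minus RT4) was tested in edgeR with BH adjustment and passed for each gene named here. Among the isoenzyme genes it was -9.60 for PFKP, -1.35 for PFKL, -0.79 for PFKM, -5.27 for FBP1, -2.23 for ALDOA, -4.36 for PKM, 7.03 for PKLR, -3.32 for LDHA and -8.73 for LDHB. For FBP1 it was -7.18 without RT4 shNC replicate 2, and PKLR passed the filter on low counts only through T24 shFTO, so its call was fixed by the filter. For PFKM and LDHB both lines fell and the difference is one of size, while PFKP, PFKL, ALDOA, PKM and LDHA moved in opposite directions. For FTO it was -1.04, with the RT4 change against its label.

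Among other enzymes it was -7.67 for ALDOC, -2.47 for ENO1, -1.93 for ENO2, -2.85 for PGK1, -3.70 for G6PC3, -3.12 for PC and 2.90 for PCK2. For the regulators of phosphofructokinase it was 1.39 for PFKFB3 and -3.60 for PFKFB4. For pyruvate and lactate handling it was 0.33 for MPC1, -2.38 for PDHA1, -5.28 for PDK3, -9.81 for PDK4, 0.98 for PDP1 and -5.15 for SLC16A3. For splicing and transcription factors it was 1.33 for HNRNPA1, 0.93 for PTBP1, -1.27 for EPAS1, 4.87 for FOXO1, -3.11 for HIF1A, 6.36 for HNF4A and 1.36 for MYC.

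The shares of 3 genes moved in opposite directions in the lines in all same-numbered pairs, a difference that was not itself tested. For PFKL this holds per kb of exon only, since its RT4 change was 1.15 points by counts and -0.060 with coding length. The PFKP share moved by -42.8 percentage points in T24 and 36.9 in RT4, the PFKL share by 54.3 and -2.21, and the ALDOA share by 0.813 and -2.50.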

How the results depend on the processing

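Of 701 recomputed log2 changes of members, 689 kept their direction and their side of the threshold. They cover shFTO against shNC in each line, the difference of these changes, and the controls against each other. The exceptions among them were PKLR and PFKP, whose direction turned, and PFKL. Between T24 shNC and RT4 shFTO, upper-quartile scaling changed PKM and LDHA as given above and turned ALDOA (log2 difference 0.075, edgeR BH-adjusted p = 0.114). PKLR, at a few counts, turned to -0.099, -0.080 and -0.26 in RT4 without shFTO replicates 1 and 3 and shNC replicate 3, and to -0.16 and -0.015 between the controls without RT4 shNC replicate 3 and T24 shNC replicate 3, the ranges over left-out libraries reaching 0.84 and 0.92. PFKP between the controls turned to -0.058 with no low-count filter and to -0.00046 without T24 shNC replicate 3 (up to 0.045 without others), and was called with DESeq2 and upper-quartile scaling; PFKL between the controls was lost with no low-count filter (edgeR BH-adjusted p = 0.842) and without either of the libraries named for it. Upper-quartile scaling shifted the median log2 change over tested genes (T24 -0.105, RT4 -0.107), and no member turned direction there in the contrasts of shFTO against shNC. The counts of members and of all genes called stayed within 1.5 times throughout. With the replicate block, 17671 genes were called in T24 and 17733 in RT4, and no call of a member changed. Leaving out each library gave 17729 to 18470 genes in T24 and 17784 to 18505 in RT4.

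Share differences moved with the length used, by construction. In percentage points, by counts and by coding length: PFKP -31.5 and -32.8 in T24, 36.2 and 35.1 in RT4, 2.99 and 2.84 between controls; PFKL 49.4 and 49.7 in T24, 1.15 (turned) and -0.060 in RT4, 4.53 and 4.48 between controls; PFKM -17.9 and -16.9 in T24, -37.3 by counts in RT4, -7.53 and -7.31 between controls. PKLR gave 1.80 and 1.67 in T24. LDHB gave -33.9 and -35.6 in T24, -55.8 and -56.9 in RT4, and -31.2 by both between controls. ALDOA gave 0.611 by counts in T24, -1.88 and -2.15 in RT4, -2.25 and -2.58 between controls. The FBP1 percentage gave 1.58 and 3.69 in T24, 0.0666 and 0.155 in RT4, 0.385 and 0.930 between controls. The log2 ratios of summed levels, by counts and by coding length (alternatives chosen after seeing the data), were -2.13 and -2.10 for phosphofructokinase in T24, 0.50 and 0.57 in RT4, and -2.23 and -2.27 for lactate dehydrogenase in T24; that of lactate dehydrogenase in RT4, -0.33 per kb of exon, turned to 0.30 and 0.24. Counting error limits FBP1 in RT4, PKLR outside T24 shFTO, and LDHB and PFKP in T24 shFTO.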

Other observations

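The genes beside each member on the chromosome were looked up, and those given here were chosen after their values were seen. Next to PKM, PARP6 averaged 64.5 CPM in T24 shNC, 0.0968 CPM in T24 shFTO, 49.3 CPM in RT4 shNC and 62.7 CPM in RT4 shFTO, while HEXA, 2 genes further on, averaged 168 and 113 CPM in the T24 groups. Near LDHB, RECQL averaged 80.5 CPM in T24 shNC and 48.4 CPM in T24 shFTO, GOLT1B 47.7 and 73.5 CPM, and CMAS 39.3 and 32.3 CPM. Also near it, SPX rose from 1.28 to 9.31 CPM and KCNJ8 from 0.160 to 11.5 CPM in T24, while ST8SIA1 fell from 0.156 to 0.0321 CPM. Near PFKP, IDI1 averaged 61.9 and 60.8 CPM and PITRM1 49.4 and 47.6 CPM in the T24 groups, neither being called (edgeR BH-adjusted p = 0.644 and 0.295). WDR37 was called lower in T24 (log2 change -0.33, edgeR BH-adjusted p = 5.4e-05), and KLF6 rose from 16.1 to 118 CPM. Near PKLR, SCAMP3, CLK2 and FDPS were not called in T24 (edgeR BH-adjusted p = 0.184, 0.299 and 0.545). HCN3, RUSC1 and ASH1L were called lower there (log2 change -0.87, -0.65 and -0.29, edgeR BH-adjusted p = 2.64e-07, 5.7e-10 and 6.98e-06). Next to PFKM, the log2 change in T24 was -0.22 for SENP1 and -0.43 for ASB8. Further out it was -1.17 for TMEM106C and 4.71 for COL2A1. OR10AD1 fell from 0.614 to 0.00853 CPM in T24, and CCDC184 was at 0 CPM in both T24 groups. Near FBP1, that in RT4 was 3.06 for AOPEP, 1.22 for FANCC, 0.74 for PTCH1, 0.13 for PTPDC1 and -0.12 for ZNF169. For FBP2 it was -3.41, with 0.688 CPM in RT4 shNC and 0.0645 CPM in RT4 shFTO.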
